A study of Mus musculus with 8 samples.

Results

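Narrow sites at which every ALKBH5 library held a peak numbered 1106, out of 43029 regions that result from merging the 4 deposited peak lists (2.57%) and out of 2022 regions with a peak of all 4 lists (54.7%). A site was a merged region, joining peaks that share at least 1 bp, that held a peak of both full-length and both del-cIDR lists and was at most 320 bp wide. The sites were thus chosen by the measured peak positions and widths of all 4 lists, and their number, widths and presence in each list are descriptions without a test. The data are eCLIP profiles, in which UV light (here 400 mJ per cm2 at 254 nm) crosslinks a protein to RNA before immunoprecipitation and sequencing, from nuclei of E14TG2a mouse embryonic stem cells, a pluripotent line. Wild-type (WT) cells carry endogenous full-length (FL) ALKBH5. Alkbh5 del-cIDR cells carry ALKBH5 without its C-terminal intrinsically disordered region, and their lists are named for a knock-in. Each genotype had 2 immunoprecipitates and 2 inputs, 8 samples in all. All cells grew in the same medium with LIF and the inhibitors PD0325901 and CHIR99021, and no source used here says whether replicates were separate cultures or whether the mutant line is 1 clone, so p-values measure only the spread between these samples.

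ALKBH5 is an enzyme that removes the N6-methyl group from adenosine in RNA, mostly in the nucleus, and so counters the methyltransferase complex that writes this mark. Its catalytic core is flanked by disordered stretches, and the study, per its title, asks how such stretches limit the binding of demethylases. Sites held in common are those at which a peak was called both with and without the C-terminal region. In eCLIP reverse transcription tends to stop at the crosslinked base, so many reads of a site can begin at a single position. Peak callers of the kind used here lengthen each read to a set fragment length before they pile reads up.

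The sites were almost uniform in width. Merged widths ran from 301 to 320 bp with a median of 301 bp, 928 sites (83.9%) were 301 or 302 bp wide, and 23 exceeded 310 bp. Each site held exactly 1 peak per list. The smallest peak width was 297 and 243 bp in full-length replicates 1 and 2 and 300 and 301 bp in del-cIDR replicates 1 and 2, so full-length replicate 2 stood apart from the other libraries in this respect. At the sites 87.0%, 84.1%, 69.1% and 68.9% of peaks in that order had exactly the smallest width of their list. Among all other peaks of the same lists, which had no width limit, this share was 8.04%, 12.3%, 25.5% and 24.0%. The limit of 320 bp and the smallest width of 301 bp in del-cIDR replicate 2 bound the widths of the sites. Their narrow range and this contrast thus follow in part from how the sites were chosen.

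Around the width limit the sites passed into slightly longer shared regions. The widest site inside it lay on chr4:82537594-82537913, 320 bp, followed by sites of 319 bp on chr16:35054975-35055293 and on chr2:173941201-173941519. Just outside were a region of 321 bp on chr15:98847646-98847966 and regions of 322 bp on chr13:23710340-23710661 and on chr16:13976736-13977057. All positions are in GRCm39, counted from 1, and the peaks carry no strand. Genes and sequence at the sites were not analysed here.

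Peaks of different libraries met at 1 edge of a site to the base. At 447 sites all 4 peaks began at the same base, and at 474 others all 4 ended at the same base. These 921 sites made up 83.3% (exact Clopper-Pearson 95% interval 80.9 to 85.4%, which covers counting of sites only). Within 1 bp the share was 92.9%, and within 5 bp it was 98.1%, with 526 sites by their start and 559 by their end. The width limit already holds the edges of peaks near 300 bp close together, so their nearness is in part how the sites were chosen, but it leaves the shorter peaks of full-length replicate 2 free to lie anywhere between both edges. No site shared both edges within 5 bp, which peaks of such unequal smallest widths could hardly do. The opposite edge was displaced by the difference between the libraries' smallest widths: it lay 58 bp apart, the gap between 243 and 301 bp, at 393 of the 447 sites with a common start and at 407 of the 474 with a common end. The full range of this displacement was 57 to 66 bp and 57 to 68 bp. With 1 edge common, the displacement is the difference between the widest and the narrowest peak of a site, so it restates their widths.

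**Figure D1:**
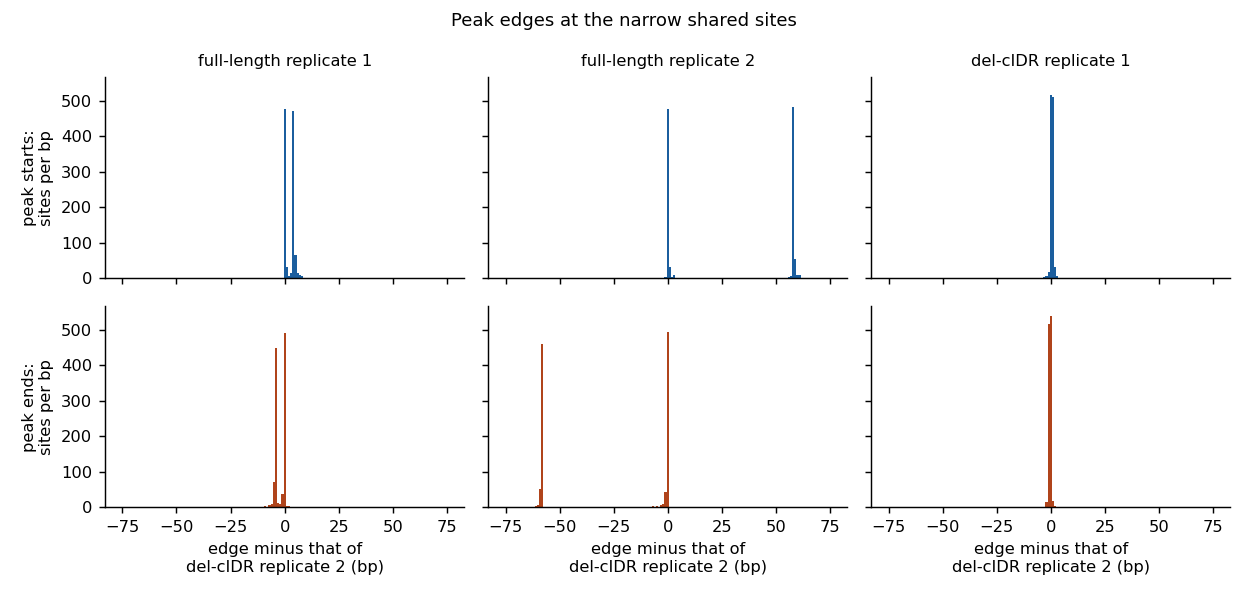
Distance of peak starts (upper panels) and peak ends (lower panels) from those of del-cIDR replicate 2 at the 1106 sites, in bp, for each of the other libraries; bars count sites per base. In full-length replicate 2 most starts and ends fall within a few bp of 0 or of a displacement of 58 bp, the difference between the smallest widths of 243 and 301 bp.

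The leading site shows this arrangement. On chr10:115700831-115701139, all 4 peaks began at 115700831. They ended at 115701135 and 115701081 in full-length replicates 1 and 2 and at 115701138 and 115701139 in the del-cIDR replicates. A site with a common end lay on chr17:83640511-83640812, where all 4 peaks ended at 83640812 and began at 83640515, 83640569, 83640512 and 83640511 in the same order of libraries. Both arrangements occurred at similar strength: the median over sites of the mean percent rank was 21.8% for common starts and 21.0% for common ends.

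Common edges were found in most pairs of peaks, both within and across genotypes. For a pair of lists, the same start or end was found at 94.8% of the sites between full-length replicates and at 93.1% between del-cIDR replicates. Across genotypes it was 86.1 to 87.7% over the 4 pairs. Pairs of lists share libraries, so these shares were not tested. Narrow regions of other classes had it too. It was found at 87.4% of 2605 narrow regions held only by both del-cIDR lists, but at 28.7% of 851 narrow regions held only by both full-length lists, against 94.8% for the same pair of libraries at the shared sites. In the 916 broader regions of all 4 lists, wider than 320 bp, it was found at 3.28 to 8.30% over the 6 pairs. The width limit separates these regions from the sites by how far their peaks extend, so for pairs without full-length replicate 2 this contrast follows from how the sites were chosen.

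Weaker sites shared an edge at least as often as stronger ones. When sites were ordered by their mean percent rank over the 4 lists and cut into 4 parts of 276 or 277 sites, the shares with a common edge were 79.7%, 80.1%, 82.6% and 90.6% from the best ranked part to the last. These shares count edges equal to the base, and within 5 bp 98.1% of all sites shared an edge. The 185 sites without an equal edge had a median mean percent rank of 14.5%. What underlies the rise was not tested.

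Summits agreed far less well than edges, a contrast that follows in part from how the sites were chosen. The width limit holds edges close but leaves each summit free within its peak, and an edge was counted on either side. Peaks of unequal width that share an edge also have their middles apart. The summit, the position the caller reports as highest, differed between the 4 libraries by a median of 106 bp (quartiles 66.25 and 166 bp, range 3 to 298 bp). All 4 summits lay within 5 bp at 6 sites (0.542%, exact 95% interval 0.199 to 1.18%) and within 20 bp at 38 sites (3.44%). They lay on the same base at 0 of 1106 sites, which allows a share of up to 0.271%. At 179 sites (16.2%) the summits spread over more than 200 bp. Without full-length replicate 2, the library with the smallest peaks, the share within 5 bp was 13.6% over the sites of the remaining lists, and at the 1106 sites the median spread over the other 3 libraries was 80.5 bp.

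Pairs of libraries that did not include full-length replicate 2 had summits within 5 bp more often. This share was 29.3% between the del-cIDR replicates, 27.0% between full-length replicate 1 and del-cIDR replicate 1, and 24.5% between full-length replicate 1 and del-cIDR replicate 2. With full-length replicate 2 it was 5.24% against the other full-length list and 5.70% and 6.15% against the del-cIDR lists. The full-length pair had the lowest share of the 6. Median distances were close for all pairs, 42.5 to 50 bp. At narrow regions of 1 genotype only, the share within 5 bp was 9.28% for the full-length pair and 26.6% for the del-cIDR pair.

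Summits gathered at a pair of fixed places in the peak. Within 3 bp of the middle of the peak lay 24.2% and 23.3% of the summits in full-length replicates 1 and 2 and 25.05% and 22.4% in del-cIDR replicates 1 and 2. Another 14.9%, 15.9%, 20.3% and 18.5% lay within 3 bp of the point at 25% of the peak, while the mirror point at 75% held 0.814 to 1.27%. Other peaks of the smallest width showed the same places at lower shares, from 7.75% in full-length replicate 1 to 17.3% in del-cIDR replicate 1 for the middle. At 64 sites all 4 summits lay in the middle of their peaks, and their spread was then 26 to 31 bp. At 679 sites (61.4%) the class of place differed between libraries, with a median spread of 106 bp.

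**Figure D2:**
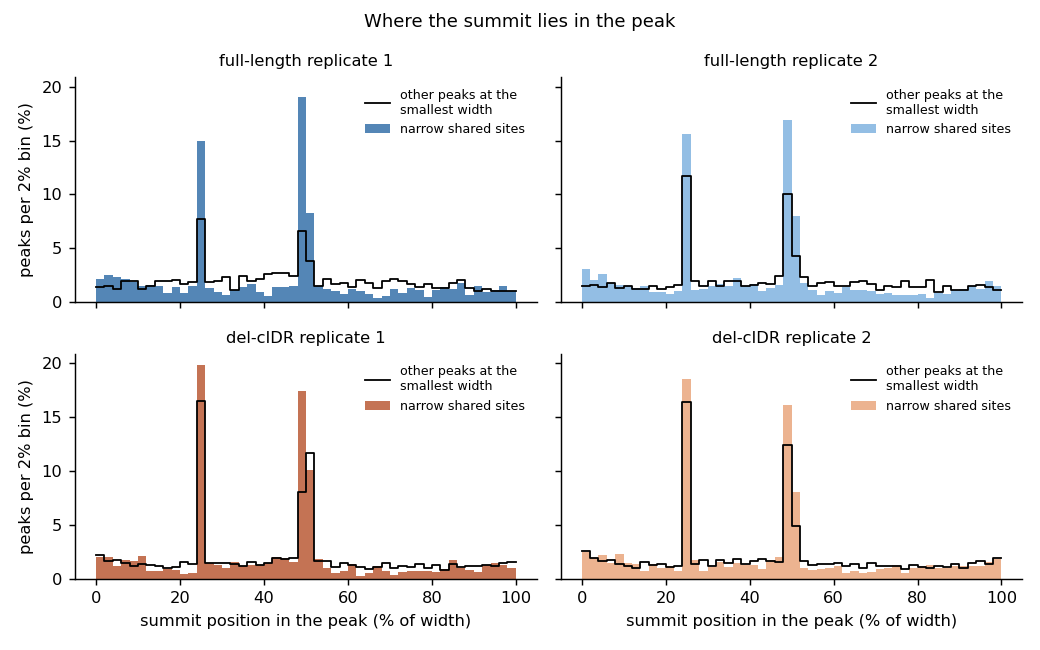
Position of the summit in the peak, in % of the peak width from its start, for the 4 libraries; bars show the narrow shared sites and black lines the other peaks at the smallest width of the list, both in % of peaks per bin of 2%. In every library the highest bars of the sites lie near 25% and 50%.

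The leading site again illustrates this. Its summits lay at 115700983 and 115700956 in full-length replicates 1 and 2 and at 115700982 in both del-cIDR lists, near the middle of each peak and 27 bp apart at most. The site on chr2:129158421-129158723 differed. Its ends agreed within 1 bp, but its summits lay at 129158486, 129158693, 129158710 and 129158572, a spread of 224 bp.

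The number of reads piled over each summit could be recovered, although the lists hold no read numbers. In each list the fold enrichment and the −log10 p together fitted a whole number of reads multiplied by 1 constant factor for that library. This held with a single solution for 99.8 to 99.9% of the peaks, against 0.481 to 1.59% when the factor was set 1% higher or lower. The factor was 0.594 and 0.588 in the full-length and 0.846 and 0.682 in the del-cIDR lists. The caller applies such a factor where a second library is supplied as control, and no source used here names that library. The caller's background at the summit was not scaled by it: it took a whole number, within 0.02, at 45.5 to 48.0% of the sites, and its lowest value, the floor of the library, was 2.56, 2.28, 2.40 and 2.32.

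Reads over the summit ranged widely among the sites. Their median was 79 and 112 reads in full-length replicates 1 and 2 and 208.5 and 258 reads in del-cIDR replicates 1 and 2. The lowest values were 16, 17, 11 and 14 reads and the highest 18232, 16393, 43223 and 44809. More than 100 reads in each of the 4 libraries were found at 452 of 1099 sites with a read number in every list (41.1%). Replicates ordered the sites alike by reads, with a Spearman correlation across sites of 0.964 between the full-length and 0.985 between the del-cIDR replicates, and 0.783 to 0.847 across genotypes. Sites are not independent replicates, and these correlations are descriptions.

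Background varied between the sites as well. The median background was 7 in both full-length lists and 7.55 and 7.22 in the del-cIDR lists. It was 14, 16, 18 and 17.5 over all other peaks, and 55.0, 50, 47.4 and 45 over peaks of broader regions of all 4 lists. The background lay at the floor of the library at 25.3 to 28.7% of the sites, and above 100 at 98, 107, 96 and 93 sites. Sites with more reads had more background: the Spearman correlation of reads and background across sites was 0.846 and 0.807 in full-length and 0.709 and 0.717 in del-cIDR lists. The background of different libraries also ranked the sites alike (Spearman 0.814 to 0.859 over the 6 pairs). A called peak must stand above its background, and both values were solved from the same fold enrichment and −log10 p. That reads and background moved together over the sites thus follows in part from how peaks are called. The part of the background in the ranks of the sites was not tested.

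**Figure D3:**
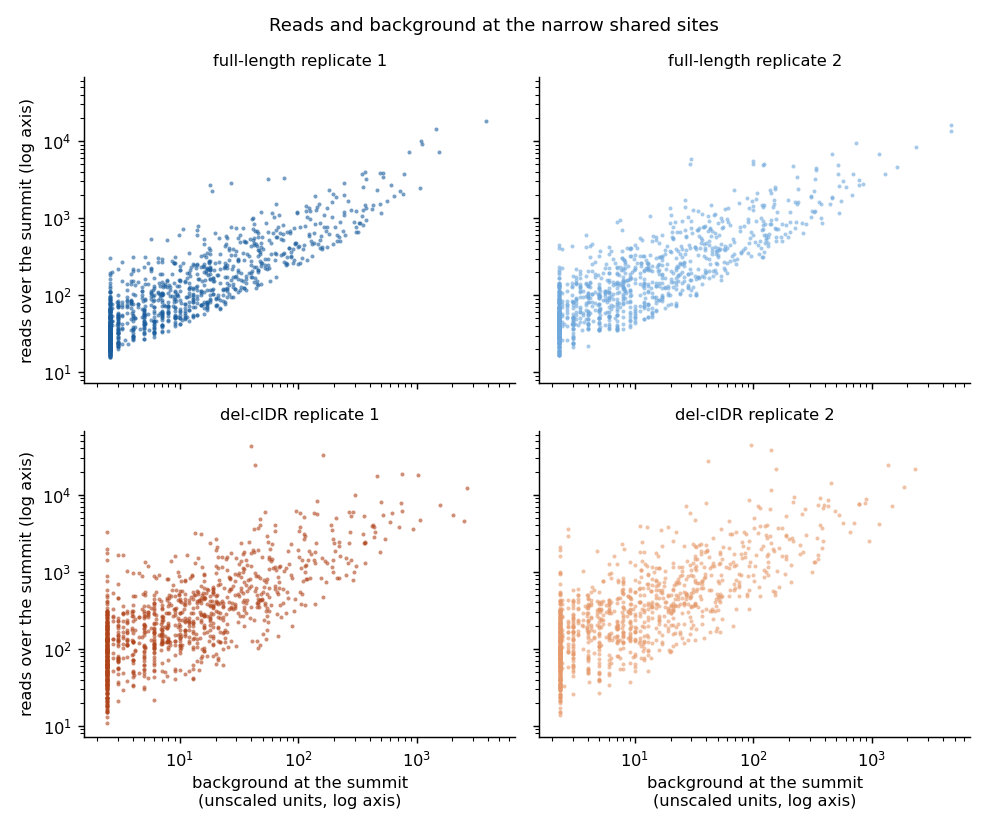
Reads over the summit against the caller's background at the same base for the narrow shared sites, 1 point per site and 1 panel per library, both on log axes. Points at the left edge are sites at the floor of the background; the highest points are the sites with 18232, 16393, 43223 and 44809 reads.

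Sites at both extremes of the background were compared by their values. At the 46 sites with a background over 100 in all 4 libraries the median fold enrichment was 2.85 and 3.01 in full-length and 7.68 and 7.98 in del-cIDR lists, on medians of 1606.5, 2109.5, 3384.5 and 4096.5 reads. At the 146 sites with the floor in all 4 libraries it was 5.11, 6.67, 17.5 and 18.2, on medians of 29, 35.5, 69 and 87 reads. A common edge was found at 80.4% of the former and 86.3% of the latter.

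Fold enrichment, the authors' own value for each peak over the caller's background, is given here list by list. Its median at the sites was 5.11 and 7.04 in full-length replicates 1 and 2 and 16.2 and 16.8 in del-cIDR replicates 1 and 2. Values above 20 were found at 36 and 94 sites in the full-length and at 472 and 473 sites in the del-cIDR lists. Values under 4 were found at 374 and 256 sites against 59 and 56. Such counts were not made over other peaks. Over all other peaks the median was 3.76, 3.51, 3.08 and 3.07, and over peaks of broader regions of all 4 lists 3.12, 2.76, 2.45 and 2.51. A peak in all 4 lists was required of the sites but not of all other peaks, so that contrast may follow in part from the choice of sites.

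The sites stood high in the del-cIDR lists and were spread over most of the full-length lists. Ranked by −log10 q within each list, their median rank was 7676 of 19892 and 3360 of 16636 peaks in full-length replicates 1 and 2, and 815.5 of 17584 and 809.5 of 18841 in del-cIDR replicates 1 and 2. As a percent of the list this was 38.6%, 20.2%, 4.64% and 4.30%. Both del-cIDR lists thus held their typical site near the top, and full-length replicate 1 placed it lower than full-length replicate 2. The lower part of the list, beyond 50%, held 451 and 260 sites in the full-length and 46 and 34 sites in the del-cIDR lists. Lists differ in length, so these ranks describe each list and show no change between genotypes. Sites had to hold a peak of all 4 lists, so their standing among all peaks may also follow in part from that choice.

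Both del-cIDR percent ranks were better than both full-length ones at 925 of the 1106 sites (83.6%), where the same held for 55.8% of all 2022 regions of all 4 lists. The reverse order held at 29 sites (2.62%), against 21.3% of all regions of all 4 lists. The remaining 152 sites had overlapping ranks. In the 916 broader regions of all 4 lists the shares were 22.2% and 43.9%. When peaks were ranked by fold enrichment in place of −log10 q, 63.8% of the sites ranked better in both del-cIDR lists.

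**Figure D4:**
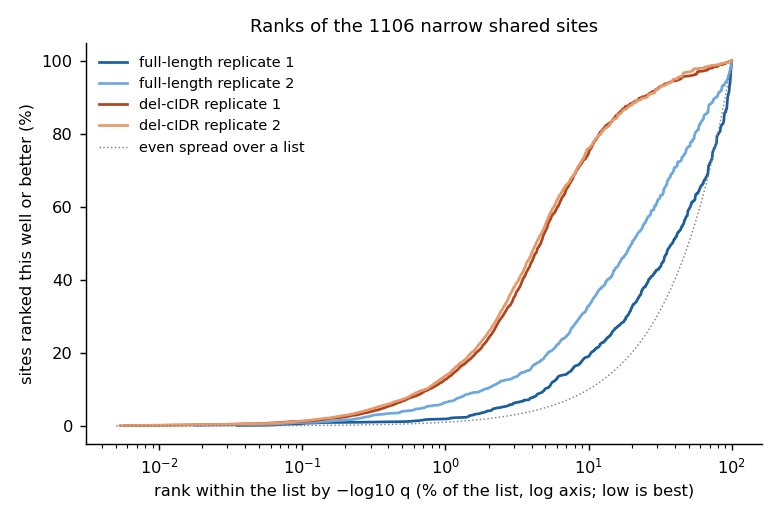
Share of the 1106 sites (%) that ranked at or better than a given place in each list, with ranks by −log10 q given as % of the list on a log axis. The del-cIDR curves lie together to the left with medians of 4.64% and 4.30%, full-length replicates 2 and 1 follow with 20.2% and 38.6%, and the dotted line marks sites spread evenly over a list.

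Among the 100 best peaks, sites made up 12% and 48% in full-length replicates 1 and 2 and 85% and 84% in del-cIDR replicates 1 and 2. Over the whole lists they made up 5.56%, 6.65%, 6.29% and 5.87% of the peaks in the same order. From rank 501 to 1000 the shares were 11.2%, 19.6%, 55.4% and 53.0%, and from rank 2001 to 5000 they were 7.17%, 8.73%, 4.80% and 5.03%. Sites within the best 10% of both del-cIDR lists numbered 791 (71.5%), of both full-length lists 189 (17.1%) and of all 4 lists 180 (16.3%). Another 214 sites (19.3%) were in the best 10% of no list. Counts in the best 10% were not made over other regions, so they describe the sites only. The order of the sites was shared more closely by replicates than by genotypes. The Spearman correlation of percent ranks was 0.942 between del-cIDR and 0.810 between full-length replicates, and 0.625 to 0.698 across genotypes.

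The 10 sites with the best mean percent rank lay on 8 chromosomes, and none ranked worse than 93 in any list. The first, on chr10:115700831-115701139, carried 2696 and 5893 reads in the full-length and 43223 and 44809 in the del-cIDR libraries, with backgrounds of 17.8, 29.6, 40.2 and 96.0. The del-cIDR libraries held more reads here. Their medians over all sites were also higher, 208.5 and 258 reads against 79 and 112, and library sizes are unknown. The site on chr6:96569949-96570255 had 2869, 5075, 24511 and 27358 reads and 60.9-fold, 99.5-fold, 473-fold and 442-fold enrichment.

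A different balance was seen on chr4:133978757-133979057. This site had 18232 reads in full-length replicate 1 and 17810 and 24136 in the del-cIDR libraries, but on backgrounds of 3844, 1018 and 1366, and its enrichment was 2.82-fold, 14.8-fold and 12.0-fold. In full-length replicate 2 it was 3.32-fold, and its read number there had no single solution. Backgrounds were also high at chr17:88050790-88051091, 301 to 1106, at chr1:91351645-91351945, 221 to 858, at chr13:30430019-30430320, 207 to 523, and at chr5:105906953-105907254, 215 to 596. At chr2:44427981-44428284 the background was 75.7 and 99.9 in the full-length lists and 751 and 156 in the del-cIDR lists. At chr2:129158421-129158723 it was 18.7, 99.0, 163 and 141, and at chr17:83640511-83640812 it was 55.0, 69, 96.0 and 109. Ranks were better in both del-cIDR than in both full-length lists at 5 of the 10, against 83.6% of all sites and 55.8% of all 2022 regions of all 4 lists, and the reverse held at 0. A count of 5 in 10 is near that background.

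Sites with the largest rank differences in favour of del-cIDR carried few full-length reads. Ranks rest on −log10 q, which the caller computes from reads and background. Read differences at sites chosen by rank, in either direction, thus follow in part from that choice. On chr13:46355115-46355415 the full-length libraries had 19 and 21 reads and the del-cIDR libraries 143 and 188, with all 4 backgrounds at the floor. Its percent ranks were 98.2% and 94.4% against 4.59% and 4.01%. The others were on chr3:66551141-66551441, on chr14:118644565-118644865 and chr14:62289942-62290242, and on chr6:18688953-18689256, with 17 to 35 full-length and 90 to 163 del-cIDR reads.

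In the opposite direction the largest difference lay on chr5:98412008-98412308, with 130 and 133 full-length and 16 and 23 del-cIDR reads at the floor of the background. Percent ranks were 8.53% and 7.27% against 90.4% and 77.1%. The site on chr6:82532481-82532781 followed with 215 and 168 against 21 and 29 reads. The remaining ones were on chr15:79217086-79217386, on chr7:61335121-61335421 and on chr1:89597028-89597328. All 5 sites of this direction ended at the same base in every library, as did 42.9% of all sites. Of the 5 sites in favour of del-cIDR, 3 had a common start, 1 a common end and 1 neither. Library sizes are unknown, so reads of different libraries were set side by side and not tested.

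Most sites stood alone, as did most narrow regions of both del-cIDR lists only. The nearest other merged region of any list lay at a median distance of 47864 bp (quartiles 15163 and 107640 bp). No other region lay within 1 kb of 96.0% of the sites, within 10 kb of 81.3% and within 100 kb of 27.6%. For broader regions of all 4 lists the median was 746.5 bp and the share with none within 10 kb was 13.1%. Narrow regions of both del-cIDR lists only (38832 bp and 77.5%) were close to the sites, and those of both full-length lists only (4566 bp and 43.4%) were nearer to other regions.

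**Figure D5:**
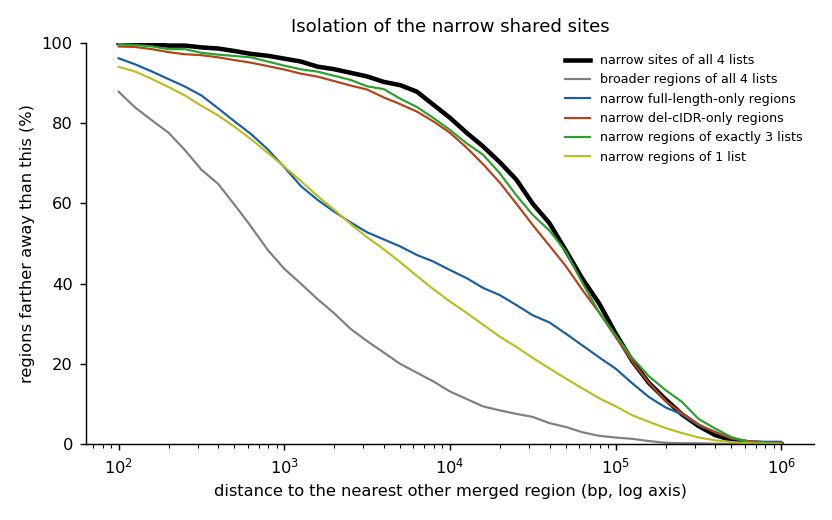
Share of regions (%) whose nearest other merged region lies farther away than the distance on the log axis, in bp, for the narrow shared sites and 5 other classes of regions. At 10 kb the sites stand at 81.3%, the broader regions of all 4 lists at 13.1% and the narrow full-length-only regions at 43.4%. Narrow regions of exactly 3 lists stand at 78.3%, narrow del-cIDR-only regions at 77.5% and narrow regions of 1 list at 35.5%.

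Within single lists, 91.7% and 92.9% of the sites in full-length replicates 1 and 2 and 89.1% and 87.1% in del-cIDR replicates 1 and 2 had no other peak of the same list within 10 kb. Other peaks of at most 320 bp had none at 44.3%, 36.2%, 66.1% and 64.0%. The sites were higher in 4 of 4 lists, by 37.5 percentage points ± 17.1 (SD, n = 4 lists, two-sided exact paired permutation p = 0.125, the smallest that 4 lists allow). By list the difference was 47.4 and 56.6 points in full-length replicates 1 and 2 and 22.9 and 23.1 points in del-cIDR replicates 1 and 2. The SD thus spans both genotypes. The mean difference was 17.5 points against only those other peaks that had the smallest width of their list, an alternative chosen after seeing the data. It was 19.2 points when only peaks of at least 4-fold enrichment were kept. Each alternative was positive in 4 of 4 lists. Peaks of broader regions of all 4 lists had none at 25.4 to 32.1%, lower by 62.5 points ± 2.71 (SD, n = 4 lists, two-sided exact paired permutation p = 0.125), or by 19.4 points with peaks of at least 4-fold enrichment. In both comparisons the 4 lists score the same sites, so they are not independent. Other narrow peaks include those inside wider merged regions, which the width limit keeps out of the sites. The 916 broader regions held 971 to 1130 peaks per list, so some peaks had a neighbour in their own region. Each site held exactly 1 peak per list, so the difference from broader regions follows in part from how the sites were chosen. Among merged regions, narrow ones of exactly 3 lists had no other region within 10 kb at 78.3%, near the 81.3% of the sites.

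Between genotypes the share of isolated sites was 92.3% ± 0.831 in the full-length and 88.1% ± 1.41 in the del-cIDR lists (SD, n = 2 per genotype). The difference of -4.20 points exceeded the replicate spread, with no overlap, and reached the smallest two-sided exact permutation p that 2 against 2 lists allow, 0.333. It was -3.89 points with lists cut to the same length, -1.38 points when peaks under 4-fold were left out, and -1.31 and -9.81 points for isolation at 1 and 100 kb.

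Sites were also far from each other. The nearest other site was a median of 0.708 Mb away, no pair of neighbouring sites lay within 1 kb, and 9 pairs lay within 10 kb. The most isolated site, on chr9:91416730-91417030, was 991 kb from the nearest region of any list. It carried 34, 44, 145 and 221 reads in full-length replicates 1 and 2 and del-cIDR replicates 1 and 2. Next were a site on chr18:51740438-51740742, 798 kb away, and a site on chr11:37623316-37623616, 729 kb away. The least isolated were on chr14:12121863-12122163, 91 bp from another region, on chr16:34540772-34541072 at 106 bp, and on the mitochondrial chromosome.

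Sites were found on every autosome and on X, Y and the mitochondrial chromosome. Chromosome 2 held the most, 92 sites, followed by 77 on chromosome 3 and 75 on chromosome 1. Chromosome lengths were taken as the end of the last peak on each. Over the 19 autosomes the number of sites followed this length with Pearson 0.900 and Spearman 0.892, and the number of merged regions with Pearson 0.790 and Spearman 0.788. The number of all merged regions followed length with 0.693 and 0.677, and that of broader regions of all 4 lists with 0.385 and 0.494. Chromosomes are no replicates, and these values are descriptions. Site density ran from 3.58 per 10 Mb on chromosome 12 to 5.34 on chromosome 11, a ratio of 1.49. For all regions the ratio of highest to lowest was 2.25 and for broader shared regions 4.53.

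The share of regions that were sites differed between chromosomes. On chromosome 17, 41 of 2160 regions (1.90%) were sites, and on chromosome 11, 65 of 3110 (2.09%). On chromosome 3 the share was 77 of 1976 (3.90%), and on chromosome 14 it was 48 of 1416 (3.39%). The X chromosome held 34 sites, 2.01 per 10 Mb, which is 0.467 times the autosomal median of 4.31. All merged regions showed a like ratio there, 0.482.

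The Y chromosome held 2 sites and the mitochondrial chromosome 1. At chrY:984766-985066 all 4 peaks ended at the same base over 31, 31, 60 and 76 reads, in the order full-length replicates 1 and 2 and del-cIDR replicates 1 and 2. At chrY:3992788-3993088 all 4 began at the same base over 82, 135, 230 and 307 reads. The mitochondrial site, chrMT:13804-14108, had 7343, 6884, 12131 and 12602 reads but only 2.85-fold, 3.55-fold, 3.89-fold and 4.57-fold enrichment. None of the 35 regions on unplaced sequences was a site.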

How the data were processed

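The study has 8 eCLIP samples, and only the peak lists of its 4 ALKBH5 immunoprecipitates were used. Lists named wt were taken as full-length and lists named KI as del-cIDR, the only other genotype. The submitters' processing notes name the tools MACS2, STAR, cutadapt and UMI-tools and the build GRCm39, but the sources used here give no version, setting or control. Peaks had been called per replicate. For each peak the authors deposited a fold enrichment (a ratio), p- and q-values as −log10, a score equal to 10 times that cut to a whole number, and a summit offset in bases (other).

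Peaks were merged and counted with Python 3.11.15, pandas 2.3.3, numpy 2.4.6 and scipy 1.17.1. Reads were solved from fold enrichment, (pile + 1) / (background + 1), and the Poisson tail −log10 p, with a floor and a factor estimated per list from its most frequent values. These steps were tested on simulated data. Intervals cover counting only, at a 95% level. The test of isolation used shares per list. Sites and lists of values were chosen with earlier results of these data known, and common edges and read recovery were examined after the lists were seen.

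Named sites were the 10 best by mean percent rank, the 5 largest rank differences in each direction, the 3 nearest to the width limit on each side, the 3 most and least isolated, and those on Y and the mitochondrial chromosome. No genome or annotation of GRCm39 was used, so genes, markers of the cell type and sequence were not analysed here.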

Additional observations from a re-analysis of the deposited data

How the results depend on the processing

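The number of sites was 617 with peaks of at least 4-fold enrichment. Without 1 library it was 1140 to 1783, the highest without full-length replicate 1. A peak of the library left out is then not required, so the number could only rise. The cause of the highest value was not tested. The share of sites with summits within 5 bp was 1.23 to 13.6% without 1 library, the highest without full-length replicate 2, and with other limits it was 0% for the same base and 3.44% for 20 bp. The share of sites ranking better in both del-cIDR lists was 79.6% with peaks of at least 4-fold enrichment, 81.0% with lists of the same length and 63.8% by fold enrichment. Without 1 library, where fewer ranks must keep the order, it was 84.7 to 91.9%. The cause of these shifts was otherwise not tested. Common edges were found at 80.9% with peaks of at least 4-fold enrichment, 92.9% within 1 bp and 98.1% within 5 bp, and at 83.6 to 84.9% without 1 library. The differences in isolation kept their direction under every alternative run, at 31.7 to 42.1 points against other narrow peaks, 59.5 to 63.9 points against broader regions and -5.23 to -3.16 points between genotypes without 1 library. With the replicate number as a block the difference between genotypes was -4.20 points (two-sided exact permutation p = 0.5, the smallest that 2 pairs allow). Same-numbered libraries did not deviate together in percent rank (correlation -0.0187 over 2022 regions). With 2 replicates per genotype this cannot show whether they were prepared in pairs. The limits are 2 replicates per genotype, unknown library sizes and no strand.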

Other observations

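Narrow regions with a peak of exactly 3 lists numbered 874. Their nearest other region lay at a median of 45897 bp, and 78.3% had none within 10 kb. Where both del-cIDR lists held a peak, at 820 of them, 93.9% had a common start or end between those lists. Across genotypes it was 79.5 to 86.8% over the 4 pairs. Where both full-length lists held a peak, at 54 regions, it was 64.8% (exact 95% interval 50.6 to 77.3%), against 94.8% for this pair at the shared sites. Narrow regions of 1 list, 10658 in all, lay nearer to others, at a median of 3544 bp.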
